A study of Mus musculus with 2 samples.

Results

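The Ifit genes, interferon-induced genes whose proteins carry tetratricopeptide repeats, were followed in single-cell RNA sequencing of orthotopic pancreatic tumors from mice given PBS or cmExoaCD11b. The 5 genes Ifit1, Ifit2, Ifit3, Ifit3b and Ifit1bl1 were taken by symbol from the 32285 genes of the count matrices, and all 5 were found. Male C57BL/6J mice, 5 to 6 weeks old when obtained, carried tumors grown in the pancreas from K210 cells, a mouse pancreatic tumor line that carries Trp53 fl/fl alleles and Pdx1-Cre, the Cre that acts in the pancreas, so both groups shared the same tumor cells. cmExoaCD11b are exosomes from mouse embryonic fibroblasts that carry cGAMP, which activates STING, together with IL-12 mRNA, and are coated with an antibody to CD11b, and the therapy experiments dosed 5 µg of cGAMP per mouse into the peritoneum. The study describes the sequenced cells as immune cells of these tumors, pooled from 3 mice per group 48 h after treatment. Each treatment is thus 1 library without a replicate. Differences between the libraries were therefore not tested, and the 95% intervals given below cover counting error only.

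Type I and type III interferons bind their receptors and, through the kinases Jak1 and Tyk2, activate a transcription factor complex that holds Stat2 and Irf9 and binds interferon-stimulated response elements and switches on the Ifit genes. Some Ifit genes are also switched on directly by interferon regulatory factors, a family of transcription factors that includes Irf3, which acts downstream of STING. Ifit proteins bind foreign RNA and hold back its translation: Ifit1 binds RNA ends that lack the methylation of host caps, Ifit2 binds double-stranded RNA, and Ifit3 is a partner of other Ifit proteins. Ifit3b is a close copy of Ifit3, and Ifit1bl1 is an Ifit1-like gene whose function is less well known.

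The sequences before the start sites are shown because they hold the letters of the response element in most members. The 5 genes lie in 1 cluster on chromosome 19, and RefSeq lists 7 start sites for them on GRCm38.p6. A motif of the letters GAAA, any 2 bases and GAAA again, read on both strands, was searched from 250 bases before to 50 bases after each start site. It was found in all 5 windows of Ifit1, Ifit3, Ifit3b and Ifit1bl1 and in 0 of the 2 windows of Ifit2, against 3.44% of 32851 windows of all genes. Ifit1, Ifit3 and Ifit3b each held 2 copies, and 0.225% of all windows held 2 or more. The 250 bases before the start site are given 5′ to 3′ on the strand of the gene, with the matched letters in capitals (here as the reverse complement of the motif), for chr19:34640639-34640888 (Ifit1), chr19:34583279-34583528 (Ifit3), chr19:34607707-34607956 (Ifit3b) and chr19:34550444-34550693 (the first start site of Ifit2), all on the plus strand.
Ifit1: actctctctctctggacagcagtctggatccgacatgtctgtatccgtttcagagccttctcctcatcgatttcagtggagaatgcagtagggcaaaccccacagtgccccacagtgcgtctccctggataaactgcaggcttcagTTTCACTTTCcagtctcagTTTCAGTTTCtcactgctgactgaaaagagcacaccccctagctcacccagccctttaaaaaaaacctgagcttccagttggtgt
Ifit3: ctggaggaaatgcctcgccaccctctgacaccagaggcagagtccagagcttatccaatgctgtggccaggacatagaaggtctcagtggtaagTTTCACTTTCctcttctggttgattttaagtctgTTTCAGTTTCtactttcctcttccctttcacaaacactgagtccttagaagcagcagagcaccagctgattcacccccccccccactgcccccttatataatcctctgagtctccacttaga
Ifit3b: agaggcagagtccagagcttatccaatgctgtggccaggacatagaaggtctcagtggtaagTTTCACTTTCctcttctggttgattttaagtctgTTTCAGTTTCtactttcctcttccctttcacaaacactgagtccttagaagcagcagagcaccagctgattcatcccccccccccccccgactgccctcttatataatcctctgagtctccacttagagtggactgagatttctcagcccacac
Ifit2: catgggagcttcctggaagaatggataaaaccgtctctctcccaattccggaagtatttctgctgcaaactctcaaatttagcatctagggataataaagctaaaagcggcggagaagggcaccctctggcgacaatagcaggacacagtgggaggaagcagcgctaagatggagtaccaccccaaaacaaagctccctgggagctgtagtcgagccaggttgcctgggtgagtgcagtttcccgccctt
The matches of Ifit1 began 104 and 85 bases before its start, and those of Ifit3 began 156 and 122 bases before its start. The window of Ifit1 overlaps that of Ifit1bl2, a neighbor read from the other strand, so that both matches lie before the start of both genes. A match is only a match of letters, and the absence of one in the windows of Ifit2 says nothing about sites elsewhere.

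The PBS library gave 6818 cells with 50107777 unique molecular identifiers (UMIs, counts of captured RNA molecules), and the cmExoaCD11b library gave 7049 cells with 62472291 UMIs. Cells were sorted into 9 classes by UMIs of marker genes, none of them an Ifit gene or on the interferon pathway lists read below. A class needed at least 3 UMIs from at least 2 of its markers, after an allowance for free RNA, and 3 times the marker UMIs of any other lineage. The gate took in 4464 and 4312 neutrophils, 326 and 90 macrophages, 243 and 289 monocytes, 31 and 76 dendritic cells (DCs), 365 and 817 T cells, 28 and 97 NK cells, 220 and 235 B cells, 43 and 146 plasma cells and 45 and 34 epithelial cells in PBS and cmExoaCD11b. Of 3 check markers per class that no gate used, all 3 were highest in their own class for neutrophils, DCs, T cells and NK cells, and 2 were for macrophages, monocytes, plasma and epithelial cells. For B cells 0 of 3 were, since H2-Aa, Cd74 and Ighm on that list were higher in DCs or plasma cells. The libraries shared 16 cell barcodes, and 899 and 824 cells passed no gate. A further 129 and 110 cells were set aside as mixed rather than placed in 1 class.

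Ifit transcripts were found in every class, and their level differed widely between classes. Over all kept cells the family made up 205 UMIs of each 1000000 (counts per 1000000 UMIs, CPM) in PBS (95% interval 201 to 209) and 524 in cmExoaCD11b (518 to 530). In the PBS library DCs stood highest with 1111 CPM, followed by T cells with 960 and NK cells with 924, and T and NK cells did not differ beyond counting error. The first places of this order rested on few cells. Without the cell with most Ifit UMIs in each class, PBS DCs stood at 735 CPM, T cells at 911 and NK cells at 267. T cells also stood above DCs by the mean over cells (1142 against 1077 CPM), after thinning to 1000 UMIs per cell (1140 against 968) and with a gate at 2 times the marker UMIs (921 against 801). Macrophages (379), epithelial cells (306) and monocytes (286) formed a middle group, and the last 2 of these did not differ beyond counting error. Neutrophils stood at 75.6, B cells at 22.4 and plasma cells at 5.19. In the cmExoaCD11b library DCs (1971) and T cells (1956) were alike within counting error, then came monocytes (1133), NK cells (1074) and macrophages (998), whose neighbors in this order did not differ either. Neutrophils followed at 305, epithelial cells at 210, B cells at 105 and plasma cells at 53.5. Since each library is a 3′ library, these levels are CPM and are not scaled by gene length.

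**Figure D1:**
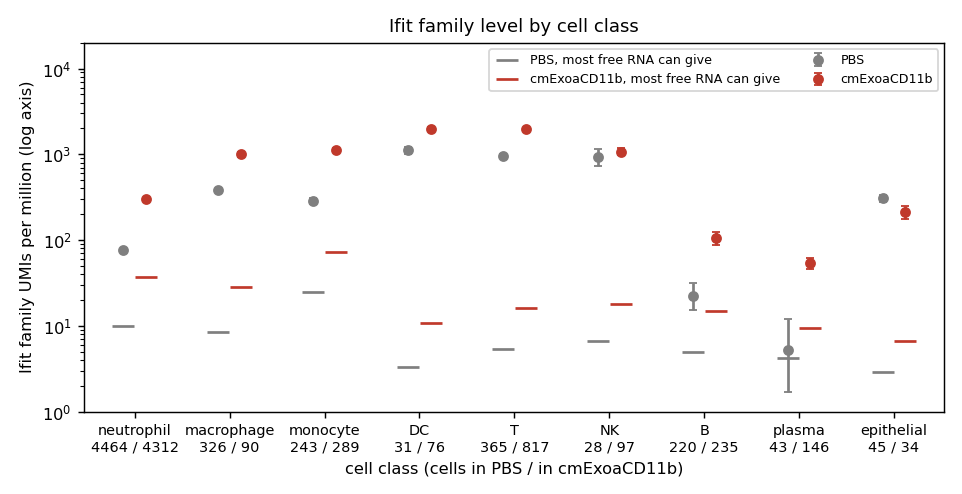
Summed UMIs of the 5 Ifit genes in CPM (log axis) in each cell class, with exact Poisson 95% intervals, for PBS (grey) and cmExoaCD11b (red). Dashes mark the estimated upper level of free RNA. The red point lies above the grey one in every class except the epithelial one, where 306 stands against 210.

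Neutrophils held 24% of all Ifit UMIs of the kept cells in PBS and 40.5% in cmExoaCD11b, as the most numerous class, at a low level. T cells held 19.6% and 23.2%, from 4.19% and 6.22% of all UMIs. Empty droplets, with at most 100 UMIs, carried the family at 206 CPM in PBS and 616 in cmExoaCD11b. From the most depleted check markers of other lineages, free RNA could give at most 25 CPM in PBS monocytes and 72.6 in cmExoaCD11b monocytes, the largest of these bounds over the classes. The PBS plasma cells were the exception, with 5.19 CPM against a free-RNA bound of 4.24, and their level is at background.

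The share of cells with an Ifit UMI, once each cell was thinned to 1000 UMIs, did not follow the order of the levels throughout. In cmExoaCD11b macrophages, T cells and DCs had shares close to each other, although macrophages had the lowest level of these, and in PBS the NK share stood below those of macrophages and monocytes. Among neutrophils 5.75% of 4245 PBS cells (exact Clopper-Pearson interval 5.07 to 6.49) and 19.9% of 4083 cmExoaCD11b cells (18.6 to 21.1) had a UMI of any member, against 12.8% and 41.7% before thinning. Among macrophages the shares were 14.2% (10.6 to 18.5) and 44.9% (34.4 to 55.9), and among monocytes 9.24% (5.88 to 13.7) and 34.5% (29 to 40.3). T cells had 29.4% (24.8 to 34.4) and 44% (40.5 to 47.5), and B cells 1.84% (0.504 to 4.65) and 11.2% (7.42 to 15.9). In these 5 classes the intervals of the libraries did not overlap. They overlapped in DCs (32.3% and 43.4%), NK cells (7.41% and 24.2%), plasma cells (0% and 4.17%) and epithelial cells (6.82% and 14.7%). These were the classes with under 50 PBS cells, where the intervals are wide. The intervals treat the cells of 1 library as independent, so neither overlap nor its absence is a test of the treatment. The 0 of 43 thinned PBS plasma cells allows a share of up to 8.22%.

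**Figure D2:**
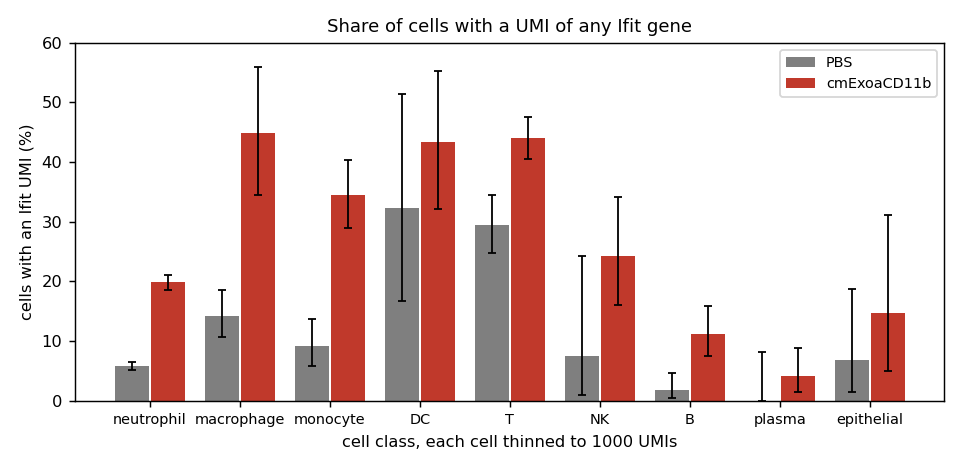
Percent of cells with at least 1 UMI of any Ifit gene after each cell was thinned to 1000 UMIs, with exact Clopper-Pearson 95% intervals. The 2 bars of each class are PBS (grey) and cmExoaCD11b (red), and the intervals stay apart in neutrophils, macrophages, monocytes, T cells and B cells. The other classes had under 50 PBS cells, and the intervals do not test the treatment.

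In neutrophils all 5 members were higher in cmExoaCD11b. Ifit1 stood at 36.4 CPM in PBS and 164 in cmExoaCD11b, a ratio of 4.5 (4.23 to 4.79). Ifit2 went from 18.3 to 59.8 (ratio 3.27, 2.99 to 3.58) and Ifit3 from 15.7 to 54.9 (3.49, 3.17 to 3.85). Ifit3b stood at 4.62 and 21.9 (4.75, 4 to 5.68), and Ifit1bl1, the rarest member, at 0.646 and 4.79 (7.41, 4.72 to 12.2). All 5 of 5 members with at least 50 UMIs were at least 2-fold higher, where 2.6% of the 11968 genes counted were. The family ratio was 4.03 (3.86 to 4.21), which lay below the ratio of each maturity subset given further on, and the make-up of the class differed, with 1090 of 4464 immature cells in PBS and 1811 of 4312 in cmExoaCD11b. The family ratio was 6.57 when only barcodes above the ranked UMI limit of 6027 (PBS) or 7146 (cmExoaCD11b) were kept. The hemoglobin genes Hbb-bs and Hba-a1, markers of red cells, stood at 109 CPM in PBS neutrophils and 421 in cmExoaCD11b neutrophils, and their part in the result was not tested.

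Monocytes also had all 5 members higher in cmExoaCD11b, with the largest ratios in the less abundant ones. Ifit1 stood at 166 and 442 CPM (ratio 2.66, 2.39 to 2.97) and Ifit2 at 97.4 and 508 (5.22, 4.57 to 5.98), so that Ifit2 passed Ifit1 in the treated library. Ifit3 stood at 15.8 and 128 (8.1, 5.87 to 11.4), Ifit3b at 3.08 and 24.7 (8, 3.88 to 19.1) and Ifit1bl1 at 3.47 and 29.6 (8.53, 4.32 to 19.2). All 5 of 5 were at least 2-fold higher, against 5.03% of 8227 genes. The monocyte gate markers Ms4a6c (496 and 1114 CPM), Ly6c2 (455 and 750), Ccr2 (362 and 479) and Vcan (200 and 290) were also higher in cmExoaCD11b. F13a1 (831 and 807) and Fn1 (1563 and 630) were lower. The part of this shift in the Ifit values was not tested.

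Macrophages were fewer in cmExoaCD11b, and over the whole class the level of every member was higher there. Ifit1 stood at 183 and 316 CPM (ratio 1.73, 1.51 to 1.96), Ifit2 at 151 and 519 (3.44, 3.07 to 3.87) and Ifit3 at 32.2 and 118 (3.65, 2.84 to 4.69). Of 4 members with at least 50 UMIs, 3 were at least 2-fold higher, against 4.1% of 8139 genes, and Ifit1 was not. In the macrophages without a UMI of Arg1, 78 of 326 cells in PBS and 42 of 90 in cmExoaCD11b, Ifit1 stood at 405 and 344 CPM (0.849, 0.669 to 1.07). Ifit3b stood at 8.74 and 23.2 CPM (2.65, 1.52 to 4.53). The macrophage check markers Cd68, Apoe and Lyz2 together stood at 22607 CPM in PBS and 10458 in cmExoaCD11b, and the 2 hemoglobin genes at 40.5 and 1335. Their part in the Ifit values was not tested.

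Dendritic cells had the highest Ifit2, the leading member of this class in both libraries. Ifit2 stood at 803 CPM in PBS and 1352 in cmExoaCD11b (ratio 1.68, 1.48 to 1.92), and Ifit1 at 275 and 408 (1.48, 1.19 to 1.87). The Ifit1 ratio turned to 0.684 with a gate at 2 times the marker UMIs. It also differed between subsets, at 0.765 (0.557 to 1.07) in DCs with type 1 genes, which were 14 of 31 cells in PBS and 54 of 76 in cmExoaCD11b, and 3.8 (2.77 to 5.3) in the other DCs. Ifit3 was nearly absent in PBS, with 3 UMIs in 31 cells or 8.25 CPM, and reached 145 UMIs in 76 cells or 154 CPM (ratio 18.6, 6.25 to 91.4). Of these 145 UMIs, 113 came from the 22 DCs without type 1 genes (ratio 46.6, 12.6 to 389). In DCs with type 1 genes the Ifit3 ratio was 7.76 (1.3 to 316). Ifit2 had a ratio of 3.06 (2.41 to 3.93) in DCs with type 1 genes and 1.34 (1.13 to 1.59) in the others. Over the whole class, 1 of 3 members with at least 50 UMIs was at least 2-fold higher, against 6.87% of 4093 genes, namely Ifit3. In the PBS library 1 of 31 DCs held 126 of 292 Ifit2 UMIs and 1 held 52 of 100 Ifit1 UMIs. The family ratio of 1.77 (1.59 to 1.98) became 2.9 when each cell was thinned to 1000 UMIs. It was 2.34 without the cell with most Ifit UMIs in each library.

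T cells had the highest Ifit1 of the classes in the cmExoaCD11b library. In PBS, T and NK cells had the highest Ifit1 without differing beyond counting error. The PBS NK value of Ifit1 came from 2 of 28 cells, 1 of which held 58 of 63 UMIs. It therefore says little about NK cells as a class. In T cells Ifit1 stood at 587 and 1129 CPM (ratio 1.92, 1.81 to 2.05) and Ifit2 at 271 and 466 (1.72, 1.56 to 1.89). Ifit3 had the largest ratio, from 43.4 to 194 (4.48, 3.6 to 5.63), followed by Ifit1bl1 from 35.3 to 101 (2.88, 2.24 to 3.74) and Ifit3b from 23.3 to 66.2 (2.83, 2.08 to 3.93). Of 5 members 3 were at least 2-fold higher, against 2.14% of 8477 genes. The family ratio was 2.04 (1.94 to 2.14), but 1.01 among the 105 and 92 T cells above the ranked UMI limits, where Ifit1 had a ratio of 0.824. The 8 housekeeping genes listed for comparison had a median ratio of 0.753 in T cells, and the median over all genes counted there was 1.02.

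The 4 remaining classes gave few Ifit UMIs, and in most of them a handful of cells held most of the counts. In B cells Ifit2 stood at 10.5 and 42.3 CPM (ratio 4.04, 2.21 to 7.88) and Ifit3 at 7.47 and 39.1 (5.24, 2.63 to 11.6). Both members with at least 50 UMIs, 2 of 2, were at least 2-fold higher, against 1.76% of 6181 genes. The B cell family ratio was 4.68 (3.13 to 7.2), and it ranged from 2.34 without doublet removal to 7.45 after thinning. In NK cells Ifit1 stood at 677 and 594 CPM (0.879, 0.662 to 1.18) and Ifit2 at 150 and 360 (2.39, 1.38 to 4.5), so 1 of 2 members was at least 2-fold higher, against 7.46% of 1823 genes. That Ifit2 ratio was 0.987 by the mean over cells, 1.03 after thinning and 1.53 without the leading cells. All 14 Ifit2 UMIs of the PBS NK cells came from 1 of 28 cells, so the PBS level behind that ratio is that of 1 cell. A single PBS cell held 63 of the 86 Ifit UMIs of that class. Without the leading cell of each library the family ratio of NK cells was 3.5 in place of 1.16 (0.92 to 1.49).

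Plasma cells had 5 Ifit UMIs in 43 PBS cells and 188 in 146 cmExoaCD11b cells, a family ratio of 10.3 (4.34 to 32.2). Ifit1 was the 1 member with at least 50 UMIs and stood at 4.15 and 38.1 CPM (9.19, 3.51 to 34.2), in a class where 10.9% of 6381 genes were at least 2-fold higher and the median ratio of all genes counted was 1.26. Ifit2 had 0 UMIs in PBS and 25 in cmExoaCD11b, and was at least 2.29-fold higher against a floor of 3 counts in the PBS class. The leading cmExoaCD11b plasma cell held 28.2% of the Ifit UMIs of its class. With free RNA taken off, the family ratio was 46.5, but the PBS level of 5.19 CPM was close to its free-RNA bound of 4.24.

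Epithelial cells were the 1 class with a family ratio below 1, at 0.684 (0.56 to 0.832), and the members went opposite ways. Ifit2 stood at 246 CPM in PBS and 42.2 in cmExoaCD11b (ratio 0.172, 0.113 to 0.252). Ifit3 stood at 7.43 and 64.1 (8.62, 4.15 to 20.1) and Ifit1 at 50.4 and 77.2 (1.53, 1.04 to 2.25). Of 3 members 1 was at least 2-fold higher, against 1.51% of 5513 genes, and 1 at least 2-fold lower, against 4.1% of the same genes. The PBS value of Ifit2 came from 5 of 45 cells, 1 of which held 161 of 298 UMIs. The cmExoaCD11b value of Ifit3 came from 6 of 34 cells, 1 of which held 21 of 44 UMIs. For Ifit1, 1 cell held 38 of 61 UMIs in PBS and 1 cell held 39 of 53 in cmExoaCD11b. Over the means of single cells the family ratio was 0.358, and after thinning it was 0.412.

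**Figure D3:**
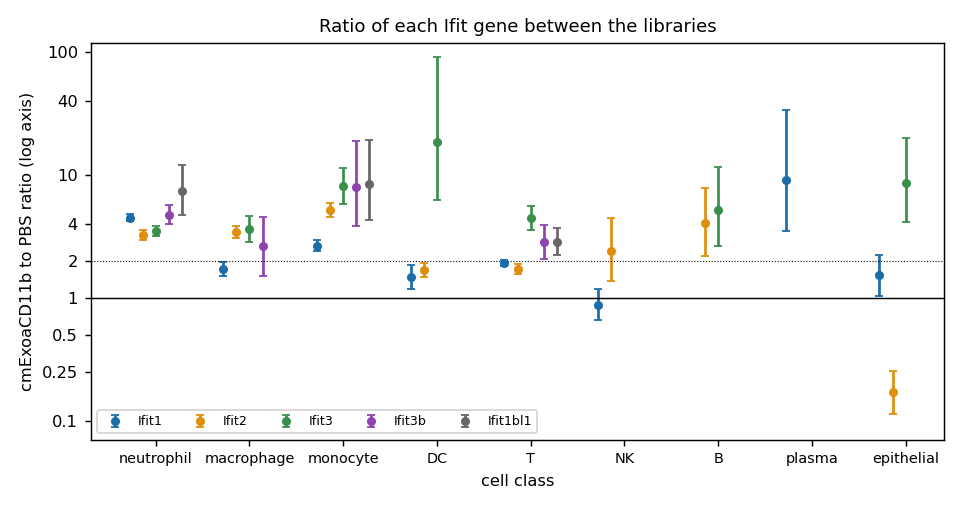
Ratio of cmExoaCD11b to PBS CPM (log axis) for each Ifit gene with at least 50 UMIs in a class, with exact conditional 95% intervals. The solid line marks equal levels and the dotted line a 2-fold ratio, and Ifit2 in epithelial cells (0.172) and Ifit1 in NK cells (0.879) lie below the solid line.

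The members did not move by the same factor within a class. The ratio of Ifit3 exceeded that of Ifit1 by 3.04-fold in monocytes (2.17 to 4.26), 2.12-fold in macrophages (1.61 to 2.79), 2.33-fold in T cells (1.86 to 2.92), 12.6-fold in DCs (3.92 to 40.2) and 5.63-fold in epithelial cells (2.51 to 12.6). The DC and epithelial values rest on few cells. Single cells also weighed on the monocyte and macrophage values. In PBS monocytes 1 cell held 121 of 431 Ifit1 UMIs and 1 cell held 16 of 41 Ifit3 UMIs. In PBS macrophages 1 cell held 147 of 797 Ifit1 UMIs, and in cmExoaCD11b macrophages 1 cell held 45 of 122 Ifit3 UMIs. In neutrophils the difference went the other way, with the ratio of Ifit3 at 0.776 of that of Ifit1 (0.693 to 0.87) over the whole class. The direction was not the same in all neutrophils: in mature cells the ratio was 3.41 (3.07 to 3.79) for Ifit3 and 5 (4.67 to 5.36) for Ifit1, but in immature cells it was 20.1 (13.8 to 30.4) for Ifit3 and 10.5 (8.92 to 12.5) for Ifit1. In B cells the same comparison gave 1.25 (0.297 to 5.25), which the counts could not resolve. Ifit2 against Ifit1 gave 1.96 in monocytes (1.65 to 2.32) and 2 in macrophages (1.68 to 2.37), but 0.727 in neutrophils (0.652 to 0.81) and 0.893 in T cells (0.797 to 1).

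The make-up of the family followed these differences. Ifit1 gave 48.1% of the Ifit UMIs of PBS neutrophils and 53.6% in cmExoaCD11b, whereas its share in monocytes was 58.1% and 39% and in macrophages 48.4% and 31.7%. Ifit2 gave 72.3% and 68.6% in DCs. Ifit3 gave 0.743% of the Ifit UMIs of PBS DCs and 7.79% in cmExoaCD11b, and 4.52% and 9.92% in T cells. The largest Ifit3 shares in the PBS library were 20.8% in neutrophils (19.2 to 22.4) and 33.3% in B cells (17.3 to 52.8). The B cell share came from 10 of 30 Ifit UMIs. In PBS plasma cells the Ifit3 share was 20%, from 1 of 5 UMIs. In epithelial cells Ifit2 made up 80.3% of the UMIs in PBS and 20.1% in cmExoaCD11b.

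**Figure D4:**
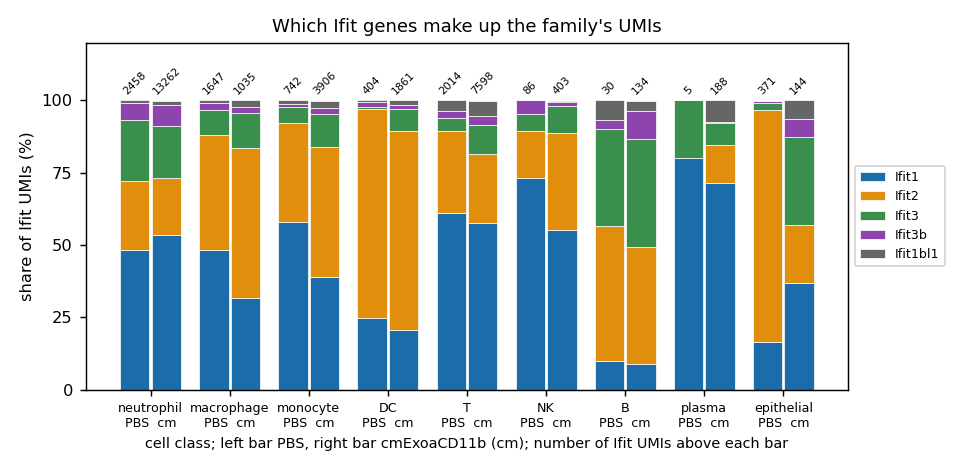
Share of each Ifit gene in the summed Ifit UMIs (percent), by class, with the left bar for PBS and the right bar for cmExoaCD11b and the number of Ifit UMIs above each bar. Ifit1 (blue) leads in neutrophils, T cells and NK cells, and Ifit2 (orange) leads in DCs.

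Ifit UMIs were concentrated in few cells. The tenth of cells with most of them held 94.9% of the Ifit UMIs in PBS neutrophils and 74% in cmExoaCD11b neutrophils, 97.2% and 67.4% in monocytes, 83.7% and 60.9% in macrophages, and 69% and 59.3% in T cells. These shares depend on how many cells had any Ifit UMI, which was 573 of 4464 PBS and 1799 of 4312 cmExoaCD11b neutrophils. Their fall between the libraries is therefore no measure of a change in concentration. Cells with at least 10 Ifit UMIs made up 1.37% of PBS neutrophils and 8.93% of cmExoaCD11b neutrophils, 6.17% and 25.6% of monocytes, and 16.7% and 23.1% of T cells. The highest cell of any class was a cmExoaCD11b monocyte with 280 Ifit UMIs. Among neutrophils with an Ifit UMI the median was 1 UMI in PBS and 3 in cmExoaCD11b, and among T cells it was 3.5 and 6. Because UMIs of 1 cell are not independent, the counting intervals of summed levels are narrower than the spread from cell to cell would give.

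In most classes with at least 50 cells the members tended to be found in the same cells. In cmExoaCD11b neutrophils Ifit1 was present in 79.8% of the 697 cells with Ifit3 and in 23.6% of the 3615 cells without it. In PBS neutrophils these shares were 57.2% and 6.41%. In cmExoaCD11b T cells 81.5% of the cells with Ifit3 and 36% of those without it had Ifit1, and in PBS T cells 71.4% and 31.9% did. In cmExoaCD11b the same shares were 78.4% and 35.8% in monocytes, 81.2% and 37.9% in macrophages and 68.2% and 16.7% in DCs. They were 85.7% and 15.7% in NK cells, but 4% and 2.86% in B cells. Only 7 of 235 cmExoaCD11b B cells had Ifit1 at all. Among B cells with and without Ifit3, Ifit2 was present in 28% and 10% and Ifit3b in 24% and 1.43%. Ifit1bl1 was present in 4% and 1.43% of them. These shares are not matched for depth. After thinning to 1000 UMIs, 1.6% of PBS neutrophils (1.25 to 2.03) and 7.23% of cmExoaCD11b neutrophils (6.45 to 8.06) held at least 2 members. The same shares were 3.36% (1.46 to 6.52) and 15.7% (11.7 to 20.4) in monocytes and 7.69% (5.17 to 10.9) and 21.7% (19 to 24.7) in T cells.

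Within the classes, the Ifit level differed between subsets gated by further genes. Immature neutrophils, with at least 1% of their UMIs from the granule genes Ltf, Camp and Ngp, had the family at 17.1 CPM in PBS and 157 in cmExoaCD11b (ratio 9.16, 8.19 to 10.3), from 1090 and 1811 cells. Mature neutrophils, the others with a UMI of Retnlg, Mmp8, Cxcr2 or Il1r2, stood at 162 and 713 (4.4, 4.19 to 4.62), from 3186 and 2395 cells. The 188 and 106 neutrophils of neither kind stood at 107 and 863 (8.09, 6.19 to 10.7). The low neutrophil average joined immature cells at a low level with mature cells at a higher one. CD8 T cells stood at 513 and 1533 (2.99, 2.72 to 3.29), CD4 T cells at 1379 and 2299 (1.67, 1.55 to 1.8), and T cells with a UMI of neither at 1467 and 2352 (1.6, 1.46 to 1.77). DCs with the type 1 genes Xcr1 or Clec9a stood at 741 and 1577 (2.13, 1.77 to 2.57) and DCs without them at 1444 and 3183 (2.2, 1.92 to 2.54), from 14 to 54 cells each, so both subset ratios lay above the ratio of 1.77 of the class. Macrophages with a UMI of Arg1, an arginine-degrading enzyme, stood at 302 and 809 (2.68, 2.43 to 2.97) and those without one at 862 and 1451 (1.68, 1.48 to 1.92).

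Cells of matched depth were compared, since the level also differed with the number of UMIs of a cell. In neutrophils the family went from 327 CPM in PBS cells of 500 to 2000 UMIs to 19.2 in cells over 16000 UMIs, and from 1070 to 140 in cmExoaCD11b. The ratio was above 1 in all 5 depth ranges, between 3.27 (2.9 to 3.7) and 10.2 (8.64 to 12.1). These ranges did not separate immature from mature neutrophils, and the part of maturity in these values was not tested. Monocytes had ratios between 3.18 (1.54 to 7.18) and 15.6 (10.2 to 25.2) and macrophages between 1.1 (0.835 to 1.45) and 5.52 (2.89 to 11.3). T cells had ratios from 1.55 to 2.66 in the 3 ranges below 8000 UMIs, 0.701 (0.603 to 0.814) between 8000 and 16000 UMIs in 36 and 53 cells, and 3.75 (2.73 to 5.21) above that in 12 and 9 cells.

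**Figure D5:**
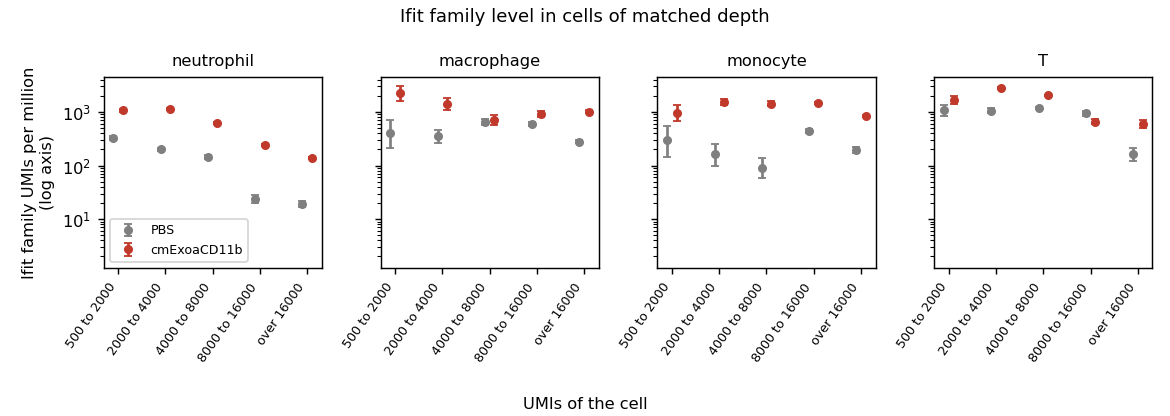
Ifit family CPM (log axis) against the number of UMIs of the cell in 5 ranges, for neutrophils, macrophages, monocytes and T cells, with exact Poisson 95% intervals. cmExoaCD11b (red) lies above PBS (grey) in every range except T cells of 8000 to 16000 UMIs, at 663 against 946.

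Ifit3 and Ifit3b are near copies, and reads can be shared between them. Their longest annotated transcripts (GENCODE vM21) were identical in 81.2% of the aligned columns, while Ifit1 and Ifit1bl1 were identical in 60.5%. Of the 411 windows of 90 bases in the last 500 bases of the Ifit3 transcript, 6.57% were found letter for letter in a transcript of Ifit3b, and 0% of those of Ifit3b were found in Ifit3. For Ifit1, Ifit2 and Ifit1bl1 0% were found in any other member. The count of Ifit3 is therefore less certain than the others, and what the shared windows mean for the count of Ifit3b was not tested. Ifit3 and Ifit3b had the most alike pattern over classes, with a Pearson correlation of 0.948 over 13 class sums. The part of shared reads in this likeness was not tested. For each 100 Ifit3 UMIs there were 29.4 of Ifit3b in PBS neutrophils and 39.9 in cmExoaCD11b neutrophils, and 53.8 and 34.1 in T cells.

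The rest of the interferon pathway was read in the same classes. Among ligands, Ifnb1, the main type I interferon of many cells, stood at 54.8 and 184 CPM in macrophages (ratio 3.36, 2.77 to 4.09), 77.8 and 142 in monocytes (1.82, 1.54 to 2.16), 140 and 147 in DCs (1.05, 0.757 to 1.48) and 0.892 and 3.31 in neutrophils (3.71, 2.48 to 5.74). Ifna2, another type I interferon, stood at 3.08 and 39.4 in monocytes (12.8, 6.32 to 30.3). Ifng, the type II interferon, stood at 455 and 570 in T cells (1.25, 1.16 to 1.35) and 601 and 501 in NK cells (0.833, 0.615 to 1.14). It was rarer in monocytes, at 0.77 and 33.9 from 2 and 117 UMIs (44.1, 11.9 to 368), in macrophages, at 9.89 and 50.2 (5.07, 3.32 to 7.78), and in neutrophils, at 1.48 and 3.06 (2.07, 1.48 to 2.95). The T cell check markers together stood at 8.09 and 35.7 CPM in monocytes, 49.2 and 99.4 in macrophages and 4.4 and 7.5 in neutrophils. In T cells they stood at 959 and 1085. The NK cell check markers together stood at 11.9 and 80.6 CPM in monocytes, 64.4 and 275 in macrophages and 94.6 and 141 in neutrophils. In NK cells they stood at 11007 and 10255. The part of T or NK cell RNA in the Ifng values of monocytes, macrophages and neutrophils was not tested. Of the 4 receptor chains, 0 were at least 2-fold higher or lower in any class among those with at least 50 UMIs, and Ifnar2 stood at 158 and 167 in neutrophils.

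Among the transducers, Stat2 stood at 13 and 39.8 CPM in neutrophils (3.07, 2.76 to 3.43), 27 and 147 in monocytes (5.45, 4.24 to 7.11) and 30 and 63.3 in T cells (2.11, 1.59 to 2.83). Irf7, the factor that amplifies type I interferon, had ratios of 2.27 (2.1 to 2.46) in neutrophils, 5.74 (4.57 to 7.27) in monocytes, 5.86 (3.73 to 9.72) in DCs and 2.84 (2.18 to 3.76) in T cells. Usp18, which dampens the receptor, had ratios of 2.33 (2.12 to 2.57) in neutrophils and 11.8 (7.65 to 19) in monocytes, while Socs3, another brake, had 0.727 (0.702 to 0.752) and 0.877 (0.807 to 0.954). By list, 1 of 5 interferon regulatory factors was at least 2-fold higher in neutrophils, 2 of 5 in monocytes and 1 of 5 in T cells. Of the 3 negative regulators 1 was at least 2-fold higher in each of these classes. Of 6 genes of nucleic acid sensing and its signalling (Cgas, Tmem173, Tbk1, Ddx58, Ifih1 and Dhx58) 3 were in neutrophils, 5 in monocytes and 2 in T cells. Over all genes counted the share at least 2-fold higher was 2.6% in neutrophils, 5.03% in monocytes and 2.14% in T cells. The STING gene, listed as Tmem173, stood at 31.6 and 68.4 in monocytes (2.17, 1.68 to 2.82) and 27.8 and 26 in macrophages (0.936, 0.592 to 1.43).

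Of 24 other interferon-stimulated genes, 13 of 22 counted were at least 2-fold higher in neutrophils (2.6% of all genes), with a median ratio of 2.22. In monocytes 19 of 23 were (5.03%), with a median of 3.48. In macrophages 16 of 23 were (4.1%), with 2.46, and in T cells 14 of 21 (2.14%), with 2.31. In the smaller classes 6 of 17 were at least 2-fold higher in DCs (6.87% of all genes), 2 of 6 in NK cells (7.46%), 9 of 12 in B cells (1.76%), 7 of 14 in plasma cells (10.9%) and 4 of 14 in epithelial cells (1.51%). At least 2-fold lower were 2 in epithelial cells (4.1% of all genes) and 1 in DCs (3.64%). The 1 in DCs was Gbp2, at 118 and 26.5 CPM (0.224, 0.131 to 0.375). Of the housekeeping genes 0 of 8 were at least 2-fold higher in neutrophils, macrophages and T cells, 1 of 8 in monocytes and 2 of 7 in plasma cells. The median over all genes counted was 1.06 in neutrophils, 1.07 in monocytes, 1.07 in macrophages and 1.02 in T cells. Isg15, a ubiquitin-like modifier, stood at 196 and 513 CPM in neutrophils (2.61, 2.54 to 2.69) and 190 and 1233 in monocytes (6.48, 5.9 to 7.13). NK cells were the only class with an Isg15 ratio below 1, at 827 and 448 (0.542, 0.411 to 0.719). Rsad2, an antiviral enzyme, resembled Ifit3 in DCs, at 41.2 and 759 (18.4, 11.1 to 33.1). Ifit1bl2, the other gene of the cluster that was examined, stood at 8.98 and 21 in neutrophils (2.34, 2.05 to 2.68) and had under 50 UMIs in the other classes.

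Over the 13 class sums with at least 50 cells, the 10 genes whose log2 level was most alike to that of the Ifit family were Ifih1, Tpm3-rs7, Apaf1, Isg15, Jaml, Dtx3l, Tle3, Il15ra, Herc6 and Iqgap2. Ifih1, a sensor of double-stranded RNA, led with a Pearson correlation of 0.956 among 13284 genes, and the last of the 10 had 0.895. Of these 10 genes, 6 were also among the first 10 by Spearman correlation. Ifih1, Isg15, Dtx3l and Herc6 are known interferon-stimulated genes. The points share their libraries, so the correlations are a description.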

How the data were processed

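Per the labels, libraries were made with the 10x 3′ kit, with 1 library per treatment. The deposited matrices hold raw UMI counts of every barcode, empty droplets included, and the file headers name Cell Ranger 7.1.0, whereas the study's methods name another version. The genome build is not given in the sources used here. The other deposited columns are gene and barcode names.

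Barcodes above a ranked UMI limit, and smaller ones of at least 500 UMIs that differed from empty droplets (10000 simulations, false discovery rate 0.01), were called cells. Those with under 200 genes or with over 20% of UMIs from mitochondrial genes were dropped. The 419 and 450 cells with the highest Scrublet scores (30 components, 0.8% expected per 1000 cells) were removed, since the automatic threshold marked 0. The kept cells had medians of 3466 and 4129 UMIs. Marker gating took off 10% of the empty-droplet level, a value set from marker UMIs. Cells within 2 times the minimum marker UMIs made up 4.31% to 29% of a class in 17 of the 18 class and library sums, and 2.05% in the other.

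Summed counts in CPM carry exact Poisson intervals, ratios exact conditional intervals, shares exact Clopper-Pearson intervals, and ratios of ratios log-normal intervals, all at 95%. With no replicate there is no test between treatments. Genes counted against the 2-fold limit had at least 50 UMIs over both libraries. Correlations used log2 of CPM plus 1. Named genes were the 5 members, examples from the pathway lists, picked after their values were seen, and the 10 genes most alike. The members and lists were chosen with earlier results of these data known, and the depth ranges after the values were seen. Scripts were tested on simulated data. Python 3.11.15, scanpy 1.11.5, scipy 1.17.1 and Biopython 1.88 were used. An allele of the tumor line and a gene of the signalling list are not reported here.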

Additional observations from a re-analysis of the deposited data

Results flagged for a closer look

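Ungated cells, which the comparisons by class leave out, carried the family at 636 CPM in PBS and 1887 in cmExoaCD11b, above the PBS level (ratio 2.97, 2.79 to 3.16). Ifit1 stood at 316 and 977 and Ifit2 at 231 and 652 in these 899 and 824 cells. Their T cell check markers Lck, Cd5 and Cd28 together stood at 158 and 580 CPM, against 959 and 1085 in gated T cells, and their hemoglobin genes at 45.3 and 6227.

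The 25 and 19 cells that passed a gate on fibroblast, endothelial or mast cell markers stood at 35.6 and 356 CPM (9.97, 6.31 to 16.5). The 129 and 110 cells set aside as mixed were lower in cmExoaCD11b, at 595 and 518 CPM (0.872, 0.796 to 0.954). Empty droplets stood at 206 and 616.

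The family ratio of epithelial cells was 0.684, and their Ifit2 ratio was 0.172, while the family ratio was above 1 in the other 8 classes and the Ifit2 ratio was above 1 in the 7 other classes with Ifit2 UMIs in PBS. With 1 library per treatment, this difference between classes was not tested over samples. By counting error alone, the neutrophil family ratio was 5.9 times the epithelial one (4.84 to 7.18). However, 1 PBS epithelial cell held 202 of the 371 Ifit UMIs of its class. The epithelial ratio ranged from 0.358 to 0.905 over the alternatives given below.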

How the results depend on the processing

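Over 12 alternatives, 85 of 107 family ratios by class stayed within the counting interval of the reported value, 22 moved outside it and 0 changed direction from a value whose interval left out 1. Sparse classes have wide intervals, so staying within one says little there. The plasma cell ratio of 10.3 (4.34 to 32.2) was counted as staying at 29.5 by the mean over cells and at 7.33 with the ranked UMI limit alone. With the ranked UMI limit alone the ratio was 6.57 in neutrophils, 1.01 in T cells, 0.796 in NK cells and 2.88 in B cells. Without doublet removal it was 3.34 in neutrophils and 2.34 in B cells. A gate at 2 times the marker UMIs gave 4.47 in monocytes, 1.51 in DCs and 0.905 in epithelial cells. The mean over cells gave 4.77 in monocytes, 2.23 in DCs and 0.358 in epithelial cells. Thinned cells gave 4.72 in monocytes, 2.9 in DCs, 7.45 in B cells and 0.412 in epithelial cells. Taking off free RNA gave 46.5 in plasma cells, whose PBS level was at background. Of 2 alternatives chosen after seeing the data, leaving out the leading cell gave 4.49 in monocytes, 2.34 in DCs and 3.5 in NK cells, and a free-RNA allowance of 5% at the gate, which took in more neutrophils (4948 and 4591) and fewer cells of the other 8 classes (303 and 76 macrophages), gave 3.56 in neutrophils and 2.4 in macrophages. The causes were not tested. Of 356 member ratios 307 stayed within their interval, 46 moved and 3 reversed, namely Ifit1 in DCs at the stricter gate (0.684), Ifit1 in T cells above the ranked limit (0.824) and Ifit2 in NK cells over the mean of cells (0.987). Of 216 family levels 86 moved. No paired analysis was possible because each treatment has 1 library. DCs, NK cells, plasma cells and epithelial cells had under 50 cells in PBS, so their values rest on few cells.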
